A study of Mus musculus with 8 samples.

Results

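The genes described here are 10 components of the postsynaptic side of the neuromuscular junction, measured as RNA in cultured mouse myotubes. They were chosen by symbol and comprise the 5 subunit genes of the muscle acetylcholine receptor (Chrna1, Chrnb1, Chrnd, Chrne and Chrng), the ligand gene Agrn, the receptor genes Lrp4 and Musk, the adaptor gene Dok7 and the anchor gene Rapsn. All 10 were found among the 53647 gene identifiers of each count file. The myotubes were wild-type primary cells, grown from limb muscle myoblasts of mouse pups aged 2 to 3 days and differentiated in medium containing 5% horse serum. Recombinant cytokine was added at 250 ng/ml for 48 h, namely interleukin 6 (IL6), leukaemia inhibitory factor (LIF) or, in the last group, oncostatin M (OSM). A Control group received no cytokine named in the labels. RNA was collected 72 h after differentiation, and 2 libraries a group gave 8 libraries in 4 groups. The labels do not say whether the 2 libraries of a group come from separate animals or dishes, so the p-values below measure the spread between these libraries, which may be technical. The 3 cytokines signal through receptors that share the gp130 chain, and the groups were compared here for the genes of the postsynaptic apparatus.

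The muscle acetylcholine receptor is a ring of 5 subunits, built from a pair of alpha subunits with beta, delta and either gamma (encoded by Chrng) or epsilon (encoded by Chrne). The gamma form is typical of embryonic and denervated muscle, and the epsilon form replaces it as the innervated junction matures. Agrin binds LRP4, which activates the kinase MuSK with the help of the adaptor DOK7, and rapsyn then anchors the receptors in clusters. In cultured myotubes many of these genes respond to myogenic factors such as myogenin, which bind E-boxes in their promoters.

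The regulatory sequences of 3 subunit genes are printed so that the motifs of the alpha gene and of the alternative gamma and epsilon genes can be read beside their levels, and no relation between sequence and level was tested. Each line gives the 250 bases before the annotated start, from the RefSeq promoter table on GRCm38.p6, 5′ to 3′ on the gene's strand. Capitals mark the E-box motif CANNTG and, in Chrne, also the N-box motif CCGGAA. Chrna1 lies at chr2:73580339-73580588 on the minus strand, Chrng at chr1:87205561-87205810 on the plus strand and Chrne at chr11:70619195-70619444 on the minus strand.
Chrna1: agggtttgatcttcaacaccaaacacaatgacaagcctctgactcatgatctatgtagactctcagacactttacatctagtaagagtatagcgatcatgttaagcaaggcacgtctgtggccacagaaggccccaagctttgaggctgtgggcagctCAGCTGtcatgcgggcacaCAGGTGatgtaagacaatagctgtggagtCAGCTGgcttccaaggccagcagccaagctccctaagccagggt
Chrng: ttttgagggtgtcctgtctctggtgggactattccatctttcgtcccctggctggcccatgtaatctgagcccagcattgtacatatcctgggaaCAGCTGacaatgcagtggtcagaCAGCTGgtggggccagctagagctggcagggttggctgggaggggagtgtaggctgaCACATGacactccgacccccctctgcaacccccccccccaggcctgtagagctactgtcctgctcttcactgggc
Chrne: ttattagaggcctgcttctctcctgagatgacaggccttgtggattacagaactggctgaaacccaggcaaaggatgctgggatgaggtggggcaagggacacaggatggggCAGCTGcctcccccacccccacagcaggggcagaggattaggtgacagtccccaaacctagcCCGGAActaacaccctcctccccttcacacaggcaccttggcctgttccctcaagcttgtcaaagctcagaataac

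Promoter sequences were found for 7 of the 10 genes, and Agrn and Dok7 each had 2 annotated starts. Chrnd, Lrp4 and Rapsn had no window and were not searched. The windows searched were 300 bases long, 250 before and 50 after the start, on both strands. CANNTG was present in a window of each of the 7 genes, but not in window 1 of Agrn or window 2 of Dok7. Counted by single window, 72.3% of 32851 promoters of this length held it, so genes with 2 windows are not counted alike. The narrower E-box CAGCTG, every match of which is also a match of CANNTG, was present in 4 of the 7 genes (Chrna1, Chrng, Chrne and Musk), against 16.3% of all promoters. Chrna1 held matches of CANNTG at positions -92, -73 and -44 from the start, Chrng at -155, -132 and -75, and Chrne at -138. The N-box CCGGAA, the motif of the synaptic regulator GABP, was found among the 7 in Chrne only, at -76, against 14.9% of all promoters. The STAT-type motif TTCNNNGAA was found in 0 of the 7, against 8.30% of all promoters. These matches describe the letters of the windows and are not evidence of binding.

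The libraries held 29482077 to 30025471 counts assigned to genes and 21358 to 21831 genes with a count. Markers of muscle fibres were abundant (summed level of 10 genes, 23333 to 28087 CPM, the read count scaled to the size of its library). Of the motor neuron markers, Chat, Slc18a3 and Mnx1 were at 0 counts in all 8 libraries, and Snap25 and Slc5a7 had at most 1 and 4 counts. Isl1 had 174 to 263 counts and was called higher with OSM (log2 change 0.52, SE 0.14, adjusted p = 0.0156). The summed Schwann cell markers were at 2.46 to 4.40 CPM. The 10 myotube markers had log2 changes below 0 with each cytokine, and 3 were called lower with OSM, 2 with LIF and 0 with IL6, where 10.6%, 3.46% and 0% of all tested genes were called lower. Of 6 myoblast markers, Mki67 was called lower with OSM (log2 change -2.02), and Pax7 (0.39), Myf5 (0.82) and Itga7 (0.25) were called higher. Cdh15 (0.19) and Vcam1 (0.20) were not called. Over all tested genes, 10.8% were called higher and 10.6% lower with OSM. With LIF, Mki67 was called lower (-0.57) and Itga7 higher (0.35), where 3.46% were called lower and 4.2% higher. The other myoblast markers were not called with LIF, and Vcam1 had a log2 change of -0.24. The part of these shifts in the results below was not tested. In such bulk samples, fewer cells of a type and less RNA per cell cannot be told apart.

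Compared per length (median CPM per kb of exon over the 8 libraries), the alpha subunit gene was the most abundant of the 10. Its level was 168 CPM per kb, followed by Chrng at 84.7, Chrnd at 66.9 and Chrnb1 at 31.8. Below these came Rapsn at 31.1, Musk at 29.3, Agrn at 17.4, Dok7 at 12.5 and Lrp4 at 10.8 CPM per kb. Neighbours in this order were not all distinct. The ranges over libraries overlapped between Chrnb1, Rapsn and Musk, between Agrn and Dok7, and between Dok7 and Lrp4, while those of Chrna1, Chrng and Chrnd were separate. Agrn and Dok7 changed places when the longest transcript was used for the length, at 18.8 and 19.2 CPM per kb.

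The epsilon subunit gene was at the limit of detection. Chrne had 0 and 3 counts in the Control libraries, 1 and 2 with IL6, 2 and 2 with LIF, and 0 and 2 with OSM. The limit allowed by a count of 0 was 3 counts, or 0.0999 to 0.102 CPM, and no library was above 3 counts, so Chrne did not pass the filter on low counts and no fold was computed between groups. Summed over the 8 libraries, Chrng had 81999 counts and Chrne 12, a ratio of 2774 per base of exon (95% exact binomial interval 1588 to 5369, counting error only). With the longest transcript as the length the ratio was 3972 (2274 to 7688). The gamma transcript was thus the more abundant of the alternative subunits in every group.

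The make-up of the receptor transcripts was similar in all libraries. Chrna1 made up 45.98% to 50.3% of the summed subunit level per kb, Chrng 22.7% to 25.1%, Chrnd 17.4% to 20.3% and Chrnb1 8.34% to 9.60%. Chrne contributed at most 0.0173%. With the longest transcript as the length, the share of Chrng was 29.5% to 32.4% and that of Chrna1 39.6% to 43.7%. The lengths come from GENCODE M21, which is not the annotation used for counting, so the shares between genes depend on these lengths while comparisons across libraries do not.

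**Figure D1:**
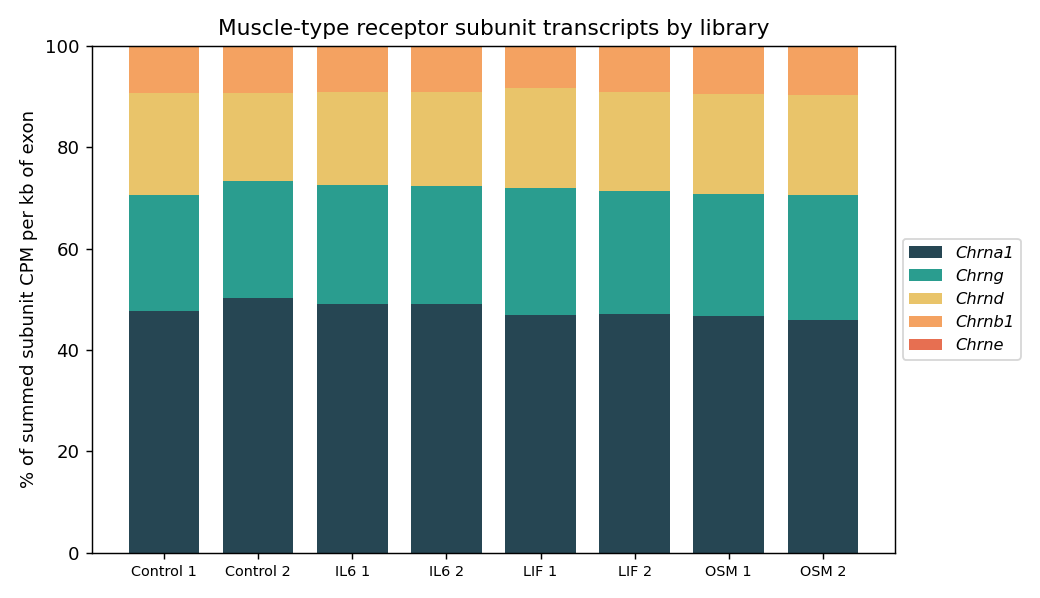
Share of each subunit gene in the summed level of the 5 muscle acetylcholine receptor subunit genes (vertical axis, % of CPM per kb of exon, from 0) in each of the 8 libraries (horizontal axis, group and replicate number). Chrna1 fills 45.98% to 50.3% of each bar, Chrng 22.7% to 25.1%, and Chrne, at most 0.0173%, is too thin to see.

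No gene of the 10 was called in any cytokine group against Control (adjusted p under 0.05, edgeR quasi-likelihood test, Benjamini-Hochberg over 15603 tested genes). The count was 0 of 9 tested with OSM, where 21.4% of all tested genes were called, 0 of 9 with LIF, where 7.66% were called, and 0 of 9 with IL6, where 0% were called. In the test of any difference among the 4 groups it was also 0 of 9, against 17.4% of all tested genes. The number with an unadjusted p under 0.05 was 3 with OSM, 2 with LIF, 1 with IL6 and 3 in the test over all groups, beside 5115, 3203, 795 and 4665 of the 15603 genes. DESeq2 called 0 with OSM, 1 with LIF (Chrng) and 0 with IL6, and limma voom called 0 in each of these.

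The intervals are for single genes and set the changes against the spread between these libraries, which may be technical. The 95% intervals of the 9 genes lay between log2 changes of -0.39 and 0.35 with OSM, -0.39 and 0.38 with LIF, and -0.42 and 0.28 with IL6. The lowest bound belonged to Agrn with IL6 and the highest, a 1.30-fold higher level, to Chrng with LIF. The median absolute log2 change of the 9 was 0.14 with OSM, 0.08 with LIF and 0.03 with IL6, beside 0.19, 0.13 and 0.09 over all tested genes. Libraries of the cytokine group and Control did not overlap for 5 of 9 genes with OSM, 4 of 9 with LIF and 1 of 9 with IL6, where the shares of all tested genes were 60.9%, 52% and 28.2%. These counts are no higher than that background.

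**Figure D2:**
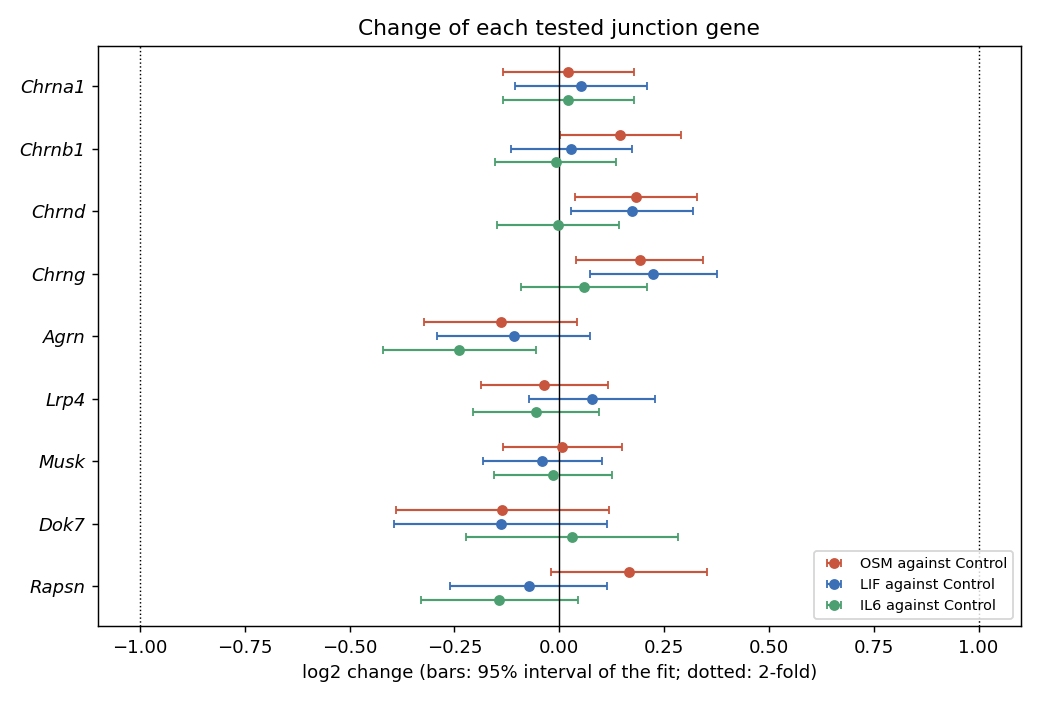
Log2 change against Control (horizontal axis) of the 9 tested genes (vertical axis) for OSM, LIF and IL6, with 95% intervals from the fit as bars and dotted lines at a 2-fold change. The intervals run from -0.42 to 0.38 and none reaches 2-fold.

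Chrna1 encodes the alpha subunit, which carries the acetylcholine binding site. Its level was 674.1 and 757.9 CPM in the Control libraries, 763.3 and 690.3 with IL6, 757.1 and 727.4 with LIF, and 745.9 and 707.6 with OSM. The groups overlapped, and the Control pair spanned more than any cytokine pair. The log2 change was 0.02 with OSM (SE 0.073, adjusted p = 0.872) and 0.05 with LIF (SE 0.073, adjusted p = 0.765). By the root mean square difference of centred log2 CPM over the 8 libraries, the genes closest to Chrna1 among 10869 candidates were Ddx47 (0.030), Mfn1 (0.034), Rapgef2 (0.035), Ift81 (0.036) and Clec16a (0.037). The nearest of the other junction genes were Chrnb1 at rank 601 and Chrng at rank 1071. Chrna1 itself varied by a factor of 1.13 between its lowest and highest library. These distances thus compare small differences between libraries, and shared regulation was not tested.

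Chrng, the embryonic gamma subunit gene, had values of 303.8 and 330.9 CPM in Control, 348.3 and 312.9 with IL6, 384.7 and 356.8 with LIF, and 365.2 and 359.6 with OSM. Every OSM and LIF library lay above both Control libraries, and the IL6 libraries overlapped Control. The log2 change was 0.19 with OSM (SE 0.070, adjusted p = 0.0696) and 0.22 with LIF (SE 0.070, adjusted p = 0.0718), and neither passed the threshold. Across the 17 alternative settings the adjusted p ranged from 0.0211 to 0.311 with OSM and from 0.0156 to 0.471 with LIF, and each comparison passed in 6 of them. With Control replicate 2 left out the adjusted p was 0.0331 with OSM and 0.0436 with LIF. Leaving out IL6 replicate 1 gave 0.0211 and 0.0200, and leaving out IL6 replicate 2 gave 0.0236 and 0.0199.

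Chrnd, the delta subunit gene, was likewise at its highest in the OSM and LIF libraries. Its values were 214.1 and 196.1 CPM in Control, 214.2 and 194.9 with IL6, 237.2 and 225.7 with LIF, and 237.2 and 228.2 with OSM. The OSM and LIF libraries lay above Control without overlap, by a log2 change of 0.18 (SE 0.067, adjusted p = 0.0738) and 0.17 (SE 0.067, adjusted p = 0.155). The adjusted p with OSM ranged from 0.0239 to 0.317 over the alternatives and passed in 5 of 17, among them those that left out Control replicate 1, IL6 replicate 1 or IL6 replicate 2. Chrnb1, the beta subunit gene, had 75.2 and 80.3 CPM in Control, 80.8 and 73.8 with IL6, 77.7 and 80.9 with LIF, and 86.8 and 85.3 with OSM. Only the OSM libraries were above all others, with a log2 change against Control of 0.15 (SE 0.067, adjusted p = 0.148).

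Agrn encodes agrin, the proteoglycan that starts receptor clustering, which muscle also makes in a form of low clustering activity. It had 181.7 and 167.3 CPM in Control, 133.6 and 162.1 with IL6, 161.9 and 161.8 with LIF, and 151.7 and 165.1 with OSM. All 6 cytokine libraries were below both Control libraries, and IL6 replicate 1 was the lowest. The log2 change was -0.24 with IL6 (SE 0.084, adjusted p = 0.943), -0.14 with OSM (adjusted p = 0.281) and -0.11 with LIF (adjusted p = 0.536). The IL6 value passed in 1 of 17 alternatives, without IL6 replicate 2 (log2 change -0.39, adjusted p = 0.0205, range 0.0205 to 0.9998). Gene counts do not separate the agrin splice forms.

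Lrp4, the agrin receptor gene, and Musk, the gene of the kinase it activates, overlapped Control with each cytokine. Lrp4 had 121.4 and 107.6 CPM in Control, 114.5 and 105.7 with IL6, 123.2 and 118.5 with LIF, and 111.8 and 111.5 with OSM. Musk had 116.9 and 107.7 CPM in Control, 114.6 and 107.6 with IL6, 111.3 and 107.0 with LIF, and 115.9 and 109.8 with OSM. Musk varied least of the 9 genes, by a factor of 1.09 between its lowest and highest library, and its log2 change with OSM was 0.01 (95% interval -0.13 to 0.15, adjusted p = 0.953). The log2 change of Lrp4 with OSM was -0.04 (95% interval -0.19 to 0.11, adjusted p = 0.771).

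Dok7, the gene of the adaptor that activates MuSK from inside the cell, varied most between libraries. It had 61.7 and 53.8 CPM in Control, 66.2 and 51.7 with IL6, 52.1 and 52.7 with LIF, and 56.6 and 48.4 with OSM. The LIF libraries were below both Control libraries and the other groups overlapped Control. The log2 change was -0.14 with OSM (SE 0.12, adjusted p = 0.454) and -0.14 with LIF (SE 0.12, adjusted p = 0.569).

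Rapsn, which encodes the anchor rapsyn, gave the single call among the 10 genes. Its values were 53.2 and 62.9 CPM in Control, 48.9 and 56.2 with IL6, 54.5 and 55.9 with LIF, and 64.8 and 65.4 with OSM. Both OSM libraries were above the other 6. Rapsn was higher with OSM than with IL6 by a log2 difference of 0.31 (SE 0.087, adjusted p = 0.0279), where 15.5% of all tested genes were called and 1 of the 9 was. Against Control the change with OSM was 0.17 (SE 0.086, adjusted p = 0.205), against LIF the difference was 0.24 (SE 0.087, adjusted p = 0.124), and the change with IL6 was -0.14 (SE 0.087, adjusted p = 0.943). The difference from LIF passed without a filter (0.0286), with only the groups compared (0.0027) and with a replicate block (0.0356). It also passed with some single libraries left out. The difference from IL6 passed in 12 of 17 alternatives (adjusted p 0.000776 to 0.144). It was lost without IL6 replicate 1 (0.136), LIF replicate 1 (0.0532), LIF replicate 2 (0.0534), OSM replicate 1 (0.143) or OSM replicate 2 (0.144). Against Control it passed only without Control replicate 2 (0.0353, range 0.0353 to 0.772). None of the 9 genes was called between OSM and LIF, where 8.04% of all tested genes were, or between LIF and IL6, where 2.78% were. Unadjusted p under 0.05 was reached there by 1 and 2 of the 9, beside 3230 and 2295 of the 15603 genes.

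**Figure D3:**
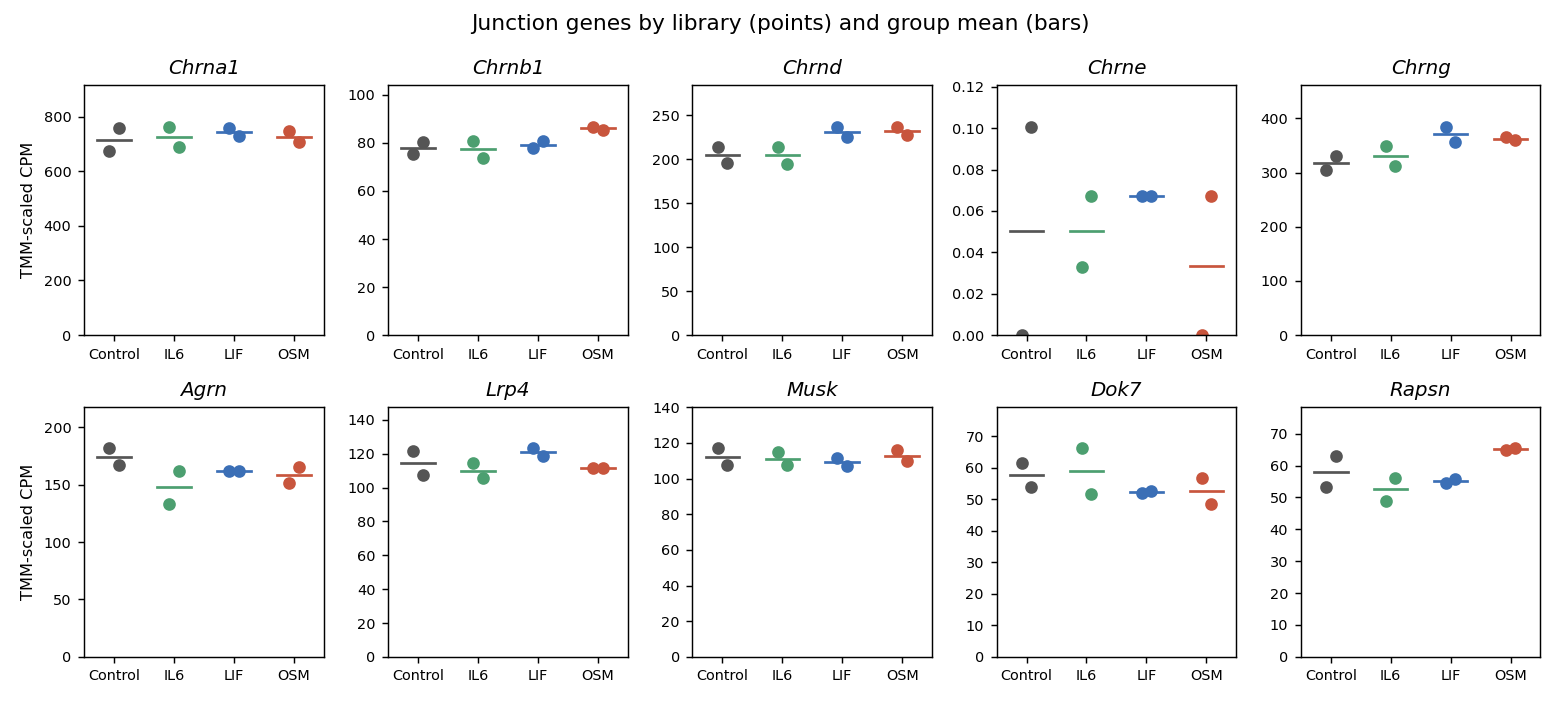
Level of each of the 10 genes (vertical axes, TMM-scaled CPM from 0, scale differing between panels) in the 2 libraries of each group (points) with the group mean (bars). Chrne does not exceed 3 counts (0.101 CPM) in any library, and both OSM libraries of Rapsn, at 64.8 and 65.4 CPM, are above the other 6.

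Other genes of the junction were examined in 7 lists. The list of synaptic cleft and basal lamina genes had 3 of 11 tested called lower and 0 higher with OSM, and the same with LIF, where 10.6% and 3.46% of all tested genes were called lower. The 3 were Colq, Bgn and Nid2 in both comparisons. Colq encodes the collagen tail that anchors acetylcholinesterase in the synaptic cleft. It had 17.3 and 19.3 CPM in Control, 15.5 and 17.2 with IL6, 10.96 and 10.69 with LIF, and 11.7 and 10.4 with OSM. The OSM and LIF libraries were all below Control and IL6, and Colq fell by 0.73 on the log2 scale with OSM (SE 0.11, adjusted p = 0.000366) and by 0.76 with LIF (SE 0.11, adjusted p = 0.00111). Both calls held in 17 of 17 alternatives.

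Bgn encodes biglycan, a matrix proteoglycan that binds MuSK and dystroglycan. It had 917.9 and 987.6 CPM in Control, 712.1 and 917.0 with IL6, 744.2 and 707.8 with LIF, and 586.1 and 633.5 with OSM, lower in all OSM and LIF libraries than in Control. It fell by 0.64 on the log2 scale with OSM (SE 0.10, adjusted p = 0.000826) and by 0.39 with LIF (SE 0.10, adjusted p = 0.0362). Nid2 encodes nidogen 2, which is concentrated in the basal lamina of the synapse, and it fell by 0.49 with OSM (adjusted p = 0.000672) and by 0.32 with LIF (adjusted p = 0.0275). The LIF calls of both genes were lost without Control replicate 2 (Bgn 0.183, Nid2 0.178), LIF replicate 1 (0.137 and 0.258), LIF replicate 2 (0.266 and 0.116), OSM replicate 1 (0.0624 and 0.0675) or OSM replicate 2 (0.0638 and 0.0673). That of Bgn was also lost without Control replicate 1 (0.0843). Over the alternatives the adjusted p ranged from 2.76e-07 to 0.266 for Bgn and from 7.13e-05 to 0.258 for Nid2. Fibroblasts also make these matrix genes. The summed level of 6 fibroblast markers was 1652 to 1716 CPM in Control, 1503 to 1703 with IL6, 1983 to 2046 with LIF and 2058 to 2166 with OSM, a sum made up mostly of Col3a1, which was called higher with OSM (log2 change 0.49, adjusted p = 0.000373) and LIF (0.37, adjusted p = 0.00849). Col1a1, of the same list, went the other way, with 309.0 and 169.4 CPM in Control, 92.2 and 160.8 with IL6, 183.4 and 117.8 with LIF, and 72.1 and 84.7 with OSM. Its log2 change with OSM was -1.61 (SE 0.47, adjusted p = 0.0858), which did not pass. Of the 4 tested markers, 2 were called higher with OSM (Col3a1 and Pdgfra), 1 with LIF (Col3a1) and 0 lower. Over all tested genes, 10.8% were called higher with OSM and 4.2% with LIF. Lum was at 0 counts in all libraries, and the part of fibroblasts in the result was not tested. Ache, the gene of acetylcholinesterase itself, had a log2 change of 0.46 with OSM that did not pass (SE 0.16, adjusted p = 0.0689).

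Among regulators of synaptic transcription, 2 ETS factor genes fell with LIF. Etv4 and Etv5 encode ETS factors that act in the neuregulin response of subsynaptic nuclei. Etv4 had 13.7 and 14.1 CPM in Control, 12.8 and 12.8 with IL6, 7.20 and 7.13 with LIF, and 11.7 and 9.13 with OSM. It fell by 0.95 on the log2 scale with LIF (SE 0.13, adjusted p = 0.000625) and by 0.41 with OSM (SE 0.12, adjusted p = 0.0292). Etv5 had 48.0 and 47.1 CPM in Control, 50.9 and 44.2 with IL6, 31.4 and 33.4 with LIF, and 43.1 and 42.2 with OSM. It fell by 0.55 with LIF (SE 0.080, adjusted p = 0.00104), and its change with OSM was -0.16 (adjusted p = 0.189). The LIF libraries were the lowest for both genes, and both LIF calls held in 17 of 17 alternatives.

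The OSM call of Etv4 held in 11 of 17 alternatives (adjusted p 0.0127 to 0.295). It was lost with DESeq2 (0.0542) and without Control replicate 1 (0.0721), Control replicate 2 (0.105), LIF replicate 1 (0.0523), LIF replicate 2 (0.0524) or OSM replicate 2, where the log2 change was -0.24 (0.295). Erbb2, a neuregulin co-receptor gene, rose with OSM, with a log2 change of 0.24 (SE 0.064, adjusted p = 0.0161, range 0.00687 to 0.125). That call was lost without Control replicate 2 (0.0924), OSM replicate 1 (0.125) or OSM replicate 2 (0.0576). In this list of 8, the calls were 1 higher and 1 lower with OSM, and 0 higher and 2 lower with LIF. Over all tested genes, 10.8% were called higher and 10.6% lower with OSM, and 4.2% higher and 3.46% lower with LIF.

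Of 10 tested regulators of the response to activity and denervation, 1 rose and 3 fell with OSM, and 0 rose and 1 fell with LIF. Over all tested genes, 10.8% rose and 10.6% fell with OSM, and 4.2% rose and 3.46% fell with LIF. Myog, which encodes the E-box factor myogenin, had 1253 and 1014 CPM in Control, 1044 and 1073 with IL6, 841.6 and 841.6 with LIF, and 819.8 and 752.2 with OSM. All OSM and LIF libraries were below the other 4. Myog fell by 0.53 with OSM (SE 0.086, adjusted p = 0.000696) and by 0.43 with LIF (SE 0.086, adjusted p = 0.00826). The LIF call was lost without LIF replicate 1 (0.0841) or LIF replicate 2 (0.0991), with a range of 8.52e-09 to 0.0991 over the alternatives. In the same libraries the subunit genes Chrna1, Chrnb1, Chrnd and Chrng had log2 changes between 0.02 and 0.22 with OSM and LIF. The 3 of them with a window in the promoter table hold the E-box CANNTG, as do 72.3% of all promoters. A relation of these levels to Myog was not tested.

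Gadd45a, a stress gene that rises in denervated muscle, fell by 0.32 with OSM (SE 0.062, adjusted p = 0.0024), and the call held in 17 of 17 alternatives. Hdac5 and Hdac4 encode class IIa histone deacetylases that link nerve activity to receptor gene transcription. Hdac5 rose by 0.30 with OSM (SE 0.070, adjusted p = 0.0072, range 0.000141 to 0.126), a call lost without OSM replicate 1 (0.126). Hdac4 fell by 0.23 with OSM (SE 0.073, adjusted p = 0.036, range 0.0132 to 0.236), a call lost with DESeq2 (0.0705) and without either Control, LIF or OSM library.

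Of 18 partners of agrin and MuSK signalling, 3 rose and 2 fell with OSM, and 0 were called with LIF. Over all tested genes, 10.8% rose and 10.6% fell with OSM and 7.66% were called with LIF, so the 5 calls of 18 are near that background. Dnaja3, the gene of a chaperone that binds MuSK, fell by 0.35 (SE 0.076, adjusted p = 0.00478). Abl1, the gene of a kinase required for clustering, rose by 0.30 (SE 0.064, adjusted p = 0.00498). Pak1, a kinase gene downstream of Rac and Cdc42, rose by 0.25 (SE 0.063, adjusted p = 0.0138), and Sorbs2, which encodes an adaptor of the cytoskeleton, fell by 0.25 (SE 0.078, adjusted p = 0.0332). The remaining call, named after its value was seen, was Erbin, higher by 0.22 (adjusted p = 0.0193). Without OSM replicate 1 the adjusted p was 0.0781 for Dnaja3 (range 1.94e-05 to 0.0781) and 0.0879 for Abl1 (range 0.00031 to 0.0879), and these 2 calls held in the 16 other alternatives. The call of Pak1 held in 14 of 17 (range 0.00579 to 0.12) and was lost without Control replicate 1 or either OSM library. That of Sorbs2 held in 12 of 17 (range 0.00394 to 0.285) and was lost without Control replicate 1 (log2 change -0.13) or either LIF or OSM library.

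The 11 scaffold and channel genes, such as Utrn (utrophin), and the 9 tested assembly and glycosylation genes had 0 calls against Control with OSM and 0 with LIF. Over all tested genes, 21.4% and 7.66% were called. Between OSM and LIF, 1 of the 11 was called, where 8.04% of all tested genes were. It was Scn4a, named after its value was seen, lower with OSM (log2 difference -0.31, SE 0.086, adjusted p = 0.0438). Scn4a was not followed over the alternatives. Of 11 acetylcholine receptor subunit genes of other types, 2 were abundant enough to test. Chrna9, with 91 and 67 counts in Control and 26 and 36 with LIF, fell by 1.36 with LIF (SE 0.31, adjusted p = 0.0171, range 7.4e-05 to 0.176). That call was lost without Control replicate 1 (0.109), LIF replicate 1 (0.176) or LIF replicate 2 (0.0783). Chrna9 also had log2 changes below 0 with OSM (-0.61) and IL6 (-0.52), neither of them called. Its difference between OSM and LIF did not pass either. IL6 gave 0 calls in each of the 7 lists, and 0 over all genes. At an unadjusted p under 0.05 IL6 reached 795 of all tested genes, and DESeq2 called 19.

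**Figure D4:**
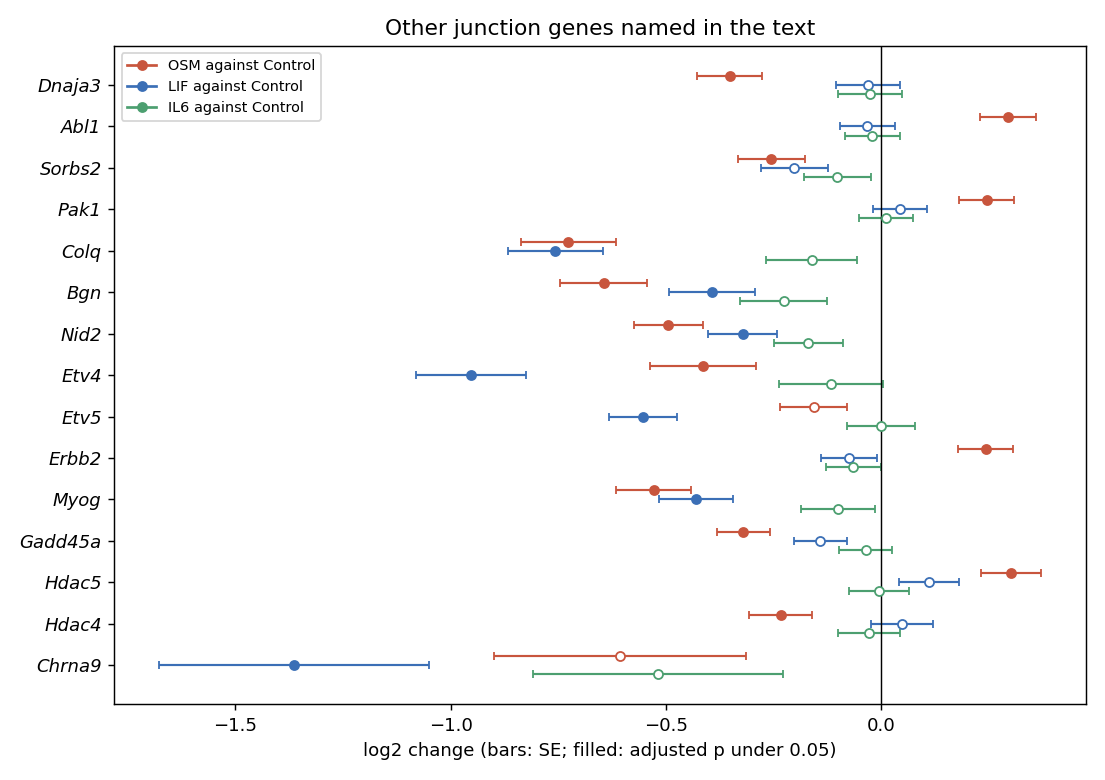
Log2 change against Control (horizontal axis, bars SE) of 15 further junction genes (vertical axis) for OSM, LIF and IL6, with filled points where the adjusted p was under 0.05. Colq, Bgn, Nid2, Etv4 and Myog have filled points below 0 for OSM and LIF, Etv5 and Chrna9 for LIF only, and no IL6 point is filled.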

How the data were processed

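RNA of 8 libraries was sequenced by the authors after stranded poly(A) selection (TruSeq Stranded mRNA kit, per the labels' protocols). Each library's deposited file gives the number of reads counted to each gene, with no normalization (raw counts). The submitters' processing notes name FastQC 0.11.9, MultiQC 1.12, Trim Galore 0.6.5, STAR 2.7.3a, HTSeq 0.11.1, DESeq2 1.34.0 and the build GRCm39 (mm39). The strand setting and annotation release are not given in the sources used here. Summary lines, 11.7% to 12.7% of the alignments recorded, were left out of library sizes and tests. Symbols and exon lengths came from GENCODE M21 (GRCm38), which holds 52094 of the 53647 identifiers, and no coordinate was taken from it. Reads that map to several places were not counted to genes. Among the 10 genes this touches Chrna1 most: 3.02% of its 50-base stretches recur in other genes, and 0% of those of the rest. The genes of the other lists were not checked for this.

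Genes were kept by filterByExpr (minimum count 10), scaled by TMM and fitted with edgeR 4.0.16 (glmQLFit, robust, and glmQLFTest in R 4.3.3) over all 8 libraries, with 6 pairwise contrasts and 1 test over the 4 groups. P-values were adjusted by Benjamini-Hochberg over 15603 genes and called under 0.05. Alternatives were relative log expression scaling, library totals, DESeq2 1.42.0, limma 3.58.1 (voom), no filter, a mean of at least 50 counts, only the groups compared, a replicate block, no robust estimation and leaving out each library, 17 settings in all. Replicates of a group differed by more than sampling noise (chi-square per gene 2.97 to 12.0).

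The 10 genes and the lists were chosen with earlier results of these data known. All 10 genes are named in every comparison against Control, and of each other list up to 4 called genes with the largest log2 change.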

Additional observations from a re-analysis of the deposited data

Results flagged for a closer look

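Among the list genes named for their change against Control, 6 differed between the OSM and LIF groups. Of the 10 genes, 1, Rapsn, differed between OSM and IL6. The list genes had been picked because they were called against Control, up to 4 a list by the largest log2 change. The OSM and LIF changes entered that choice, so differences between OSM and LIF among them are partly built in. The count of 6 was therefore not set against a background. Scn4a, named after its value was seen, is not among the 6. Against LIF, OSM was higher for Etv4 by a log2 difference of 0.54 (SE 0.13, adjusted p = 0.0211), for Etv5 by 0.40 (SE 0.080, adjusted p = 0.00729), for Abl1 by 0.33 (SE 0.064, adjusted p = 0.00587) and for Erbb2 by 0.32 (SE 0.064, adjusted p = 0.00743). It was lower for Dnaja3, with -0.32 (SE 0.076, adjusted p = 0.0178), and for Hdac4, with -0.28 (SE 0.073, adjusted p = 0.0287). These are edgeR quasi-likelihood tests of the difference itself. Each of the 6 calls was lost without LIF replicate 1 (adjusted p 0.127 for Dnaja3, 0.136 for Abl1, 0.165 for Etv4, 0.13 for Etv5, 0.15 for Erbb2 and 0.261 for Hdac4) and without OSM replicate 1 (0.223, 0.13, 0.297, 0.0889, 0.105 and 0.27 in the same order). Dnaja3, Etv4 and Hdac4 were also lost without LIF replicate 2 (0.15, 0.141 and 0.139), and Dnaja3, Etv5 and Hdac4 without OSM replicate 2 (0.0948, 0.052 and 0.128). The lowest adjusted p over the alternatives was 2.54e-05 for Dnaja3, 6.75e-05 for Abl1, 0.00152 for Etv4, 6.58e-05 for Etv5, 0.000129 for Erbb2 and 0.00121 for Hdac4. Rapsn was higher with OSM than with IL6 by 0.31 (SE 0.087, adjusted p = 0.0279).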

How the results depend on the processing

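The number of the 10 genes called depended on several settings. With OSM against Control it was 0, and 2 without a filter, 1 with only the groups compared and 2 with a replicate block, with 0 to 2 when single libraries were left out. With LIF against Control it was 0, and 1 with DESeq2, without a filter and with the block (0 to 1 without single libraries). It was 0 to 1 without single libraries for IL6 against Control and for LIF against IL6. Between OSM and LIF it was 0, and 1 without a filter, with only the groups compared and with the block (0 to 1). Between OSM and IL6 it was 1, and 2 without a filter and with the block (0 to 3). Over all groups it was 0, and 4 without a filter and 3 with the block (0 to 3). The deviations of same-numbered libraries correlated by 0.00708 to 0.181 between groups, so the numbers were not taken to pair the libraries. Calls over all genes also rose without a filter and with the block, for example from 2713 to 3847 and 3658 in the test over all groups. With LIF against Control they went from 1195 to 1154 with DESeq2. The cause of these shifts was not tested.

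Of 918 recomputed changes of the 9 tested genes, 882 kept their side of the threshold, 31 newly passed, 5 no longer passed and 0 called values changed sign. The sign of 60 values differed, none of them called. Calls over all genes moved by more than 1.5 times: with OSM from 3335 to 1622 or 1865 without OSM replicate 1 or 2, with LIF from 1195 to 443 or 316 without LIF replicate 1 or 2, and with IL6 from 0 to 19 with DESeq2, 97 without a filter, 9 with the block and up to 221 without IL6 replicate 2. Between OSM and LIF they moved from 1255 to 2928 with only those groups (437 to 1764 without single libraries), between OSM and IL6 from 2426 to 1105 at the lowest, between LIF and IL6 from 434 to 985 without a filter and 826 with the block (82 to 739), and over all groups from 2713 to 1275 at the lowest. With 2 libraries a group, the intervals given set the precision for genes that did not pass, and Chrne was too low to compare.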
